A study of Mus musculus with 7 samples.

Results

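The genes described here are 10 genes that carry, reduce, import, store, export or sense iron: *Trf*, *Cp*, *Tfrc*, *Steap3*, *Slc11a2*, *Slc11a1*, *Fth1*, *Ftl1*, *Slc40a1* and *Ireb2*. They were matched by symbol among the 55536 genes of the deposited gene list, and all 10 were found. Their transcripts were followed in hippocampal nuclei and in CD11b-selected hippocampal cells of Arctic48 and wild-type mice. Arctic48 mice (Arc) are hemizygous for a human APP transgene with the Indiana, Swedish and Arctic mutations on a C57BL6/J background and are used as a model of amyloid deposition. The cells in which the transgene is active are not given in the sources used here. PMX205, a cyclic peptide antagonist of the complement receptor C5aR1, was given at 20 µg/ml in drinking water, and mice were taken at 10 months of age. The labels give 12 weeks of treatment, and the study's text a slightly shorter span. The 4 groups were wild type on plain water (WT-veh), wild type on PMX205 (WT-PMX), Arctic on plain water (Arc-veh) and Arctic on PMX205 (Arc-PMX). By the labels, mice were perfused with buffer holding Actinomycin D and Triptolide, inhibitors of transcription, which the study's methods do not mention for perfusion. Single cells (SC) were dissociated in the presence of transcription and translation inhibitors. One split-pool barcoding run held 48 wells, and each group had 6 wells of single nuclei (SN), each from 1 mouse, and 6 wells of single cells, each pooling hippocampal tissue of 2 to 3 mice of the same sex. Wells F1 to F3 came from females and M1 to M3 from males, and the well was the replicate throughout.

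Iron reaches brain cells bound to the carrier transferrin (*Trf*), which is taken up by its receptor (*Tfrc*), released in the endosome, reduced by *Steap3* and moved into the cytosol by the metal transporter *Slc11a2*. *Slc11a1* does the same job in the phagosomes of macrophages. Iron not in use is held in ferritin, a shell of heavy (*Fth1*) and light (*Ftl1*) chains, or leaves the cell through ferroportin (*Slc40a1*), after which the ferroxidase ceruloplasmin (*Cp*) converts it into the form that transferrin binds. *Ireb2* encodes an iron regulatory protein that, when iron is scarce, binds a hairpin in target transcripts, the iron responsive element: it blocks translation from the 5′ UTR and protects the transcript from decay in the 3′ UTR.

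The iron responsive elements found in 4 of these genes are shown because such elements mark transcripts that this protein binds. Control of translation is also a step that transcript counts cannot read. The elements were found and read in the GENCODE M21 transcript sequences, with positions given on GRCm38. They are printed on the coding strand, with the 6-base loop in capitals. The search was for the letters CNNNNNCAGTGN with the 5 bases on either side of the loop able to pair, on the transcript strand only. It was met in the 5′ UTR of 30 of 20062 genes (0.15%) and in the 3′ UTR of 128 of 20874 genes (0.613%). The matches in *Fth1*, *Ftl1* and *Slc40a1* lay in the 5′ UTR and the 4 matches in *Tfrc* in the 3′ UTR, each within 1 exon.
Fth1, 5′ UTR, chr19:9982732-9982761, plus strand: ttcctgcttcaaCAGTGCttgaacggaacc
Ftl1, 5′ UTR, chr7:45459778-45459807, minus strand: gtcttgcttcaaCAGTGTttgaacggaaca
Slc40a1, 5′ UTR, chr1:45925464-45925493, minus strand: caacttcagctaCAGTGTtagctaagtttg
Tfrc, 3′ UTR, chr16:32631219-32631248, plus strand: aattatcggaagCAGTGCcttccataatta
Tfrc, 3′ UTR, chr16:32631598-32631627, plus strand: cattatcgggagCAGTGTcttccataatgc
Tfrc, 3′ UTR, chr16:32631663-32631692, plus strand: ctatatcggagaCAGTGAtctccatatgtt
Tfrc, 3′ UTR, chr16:32631710-32631739, plus strand: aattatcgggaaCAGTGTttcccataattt
The search did not record letters without a fully paired stem, so an element with an imperfect stem would be missed. No match was found in the UTRs of the other genes, which says nothing more than that. Those are *Trf* (chr9:103204001-103230444, minus strand), *Cp* (chr3:19957054-20009145, plus strand), *Steap3* (chr1:120190757-120272705, minus strand), *Slc11a2* (chr15:100387898-100425072, minus strand), *Slc11a1* (chr1:74375195-74386062, plus strand) and *Ireb2* (chr9:54863789-54912530, plus strand). For the ferritin chains and ferroportin, the counts below therefore describe the transcript and not the protein.

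The 7 deposited libraries each mix all wells and held 56591324 to 66065789 transcripts. After filtering, 3817 single cells and 43885 nuclei were kept. Single-nucleus wells held 4383653 to 29936082 transcripts and single-cell wells 1135 to 1426176, so the single-cell values are far less precise. Wild-type wells held few nuclei named microglia. The 9 with at least 10 nuclei held 12 to 47, against 56 to 159 in the 12 Arctic wells, and the 3 other wild-type wells were not used for this type. WT-veh F3 and M3 held few oligodendrocyte nuclei (15 and 28). Cells were grouped by their transcripts without the iron genes, and the groups were named by marker genes, none of them an iron gene. Naming also used the 10 leading genes of a cluster among all genes. *Trf* was 1 of these in the oligodendrocyte clusters SN-5 and SN-6. Clusters without a clear name held 378 single cells and 3721 nuclei, which belong to no type below. Levels are CPM, a gene's count scaled to the summed transcripts of a cell type in a well, as mean ± SD over the wells that held 10 or more such cells. Differences between groups were tested with edgeR's quasi-likelihood method on counts summed per well and cell type, with Benjamini-Hochberg adjustment over all genes tested in a type, and a gene is called where the adjusted p is under 0.05. For each comparison of the main fits the share of all tested genes that was called is given as the background.

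Each gene had its own distribution over the cell types of the nuclei. *Trf* was a transcript of oligodendrocytes, at 1526 ± 443 CPM (n = 24 wells), and its lower bound there (mean minus SD) lay above the upper bound of the next type, the choroid plexus (159 ± 65.9 CPM, n = 12). Oligodendrocytes contributed 64.2% of all *Trf* transcripts of the nuclei while contributing 1.84% of all transcripts. Unnamed nuclei held 21.7% of the *Trf* transcripts and 5.61% of all transcripts. Fibroblasts (109 ± 96.5 CPM), microglia (85.5 ± 79.2 CPM), endothelial cells (70.1 ± 124 CPM) and pericytes (58.8 ± 74.8 CPM) followed, each within the spread of its neighbour in the order. Neurons were low, at 4.17 ± 1.83 CPM. Among dentate granule neurons the *Trf* counts were concentrated in 1 cluster, SN-22, at 141 CPM, in which the oligodendrocyte markers summed to 2710 CPM. The 3 other dentate clusters lay between 1.24 and 2.74 CPM.

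*Cp* was highest in the cells of the vessel wall and meninges. Endothelial nuclei (437 ± 532 CPM, n = 17), fibroblasts (436 ± 218 CPM, n = 12) and pericytes (417 ± 227 CPM, n = 13) did not differ beyond their spread. The endothelial mean holds 1 well at 2294 CPM, and the medians over wells were 277, 405 and 318 CPM in that order. Oligodendrocyte precursor cells (OPC, 130 ± 39.2 CPM, n = 24) and ependymal cells (123 ± 60.8 CPM, n = 13) formed the next level, apart from the pericytes above them. Astrocytes averaged 32.8 ± 40.2 CPM, a mean over wild-type and Arctic wells that did not overlap, as described below. The choroid plexus, mature oligodendrocytes and neurons lay at or below 2.66 CPM. *Cp* was thus detected in the precursors of the oligodendrocyte lineage and near 0 in its mature cells, and *Trf* the other way round, at 2.30 ± 4.80 CPM in OPC.

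*Tfrc*, the transferrin receptor, was highest in endothelial nuclei (218 ± 177 CPM), beyond the spread of neurons, which came next at 28.6 ± 3.47 CPM (n = 24). The bounds of endothelial nuclei and pericytes (26.8 ± 33.3 CPM) overlapped, and oligodendrocytes, the type richest in *Trf*, were last at 10.9 ± 7.74 CPM. *Slc40a1*, the iron exporter, was found in endothelial nuclei (108 ± 100.3 CPM) and in microglia (86.2 ± 114 CPM), which did not differ beyond their spread. Astrocytes lay at 4.78 ± 3.28 CPM, and no transcript was counted in choroid plexus, fibroblast or pericyte nuclei.

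*Slc11a1*, the phagosomal transporter, was found in microglia at 92.1 ± 57.6 CPM (n = 21) and at or below 6.66 CPM in every other named type. Unnamed nuclei held 41.8% of the *Slc11a1* transcripts. Among them cluster SN-21 (703 nuclei) was at 33.8 CPM, with microglial markers at 2933 CPM and oligodendrocyte markers at 8366 CPM. It enters no microglial value below. The related *Slc11a2* was broad, from 13.5 ± 12.1 CPM in OPC to 47.4 ± 44.7 CPM in ependymal nuclei, with each type within the spread of its neighbour in the order. *Steap3*, the endosomal ferrireductase, was highest in fibroblasts (79.6 ± 66.0 CPM), pericytes (49.3 ± 112 CPM) and astrocytes (34.9 ± 13.0 CPM), again without a gap. Within neurons it was a transcript of dentate granule cells, at 21.7 ± 6.78 CPM (n = 24). CA1-like neurons lay at 1.65 ± 1.37 CPM, CA3-like neurons at 0.80 ± 0.91 CPM and inhibitory neurons at 0.44 ± 0.52 CPM. One small cluster named CA1-like, SN-31, went against its class at 25.1 CPM.

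*Fth1* was highest in oligodendrocytes (80.8 ± 30.0 CPM), then in endothelial cells (32.3 ± 44.5 CPM), microglia (29.6 ± 29.2 CPM) and astrocytes (24.0 ± 11.4 CPM), and low in neurons (7.66 ± 2.08 CPM). Each type, oligodendrocytes included, lay within the spread of its neighbour in the order. The microglial mean joins wild-type wells at 0 with Arctic wells above 0, as described below. *Ftl1* stayed at or below 15.5 CPM in all types of nuclei. Reads of the ferritin genes may be shared with their processed copies. In nuclei of named types the annotated copies of *Fth1* held 0 counts and those of *Ftl1* at most 15, a sum that takes neuronal nuclei more than once. How the pipeline split such reads therefore remains uncertain. *Ireb2*, the sensor, ranged from 46.3 ± 16.8 CPM in ependymal nuclei to 110 ± 64.4 CPM in microglia, with no gap in the order.

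**Figure D1:**
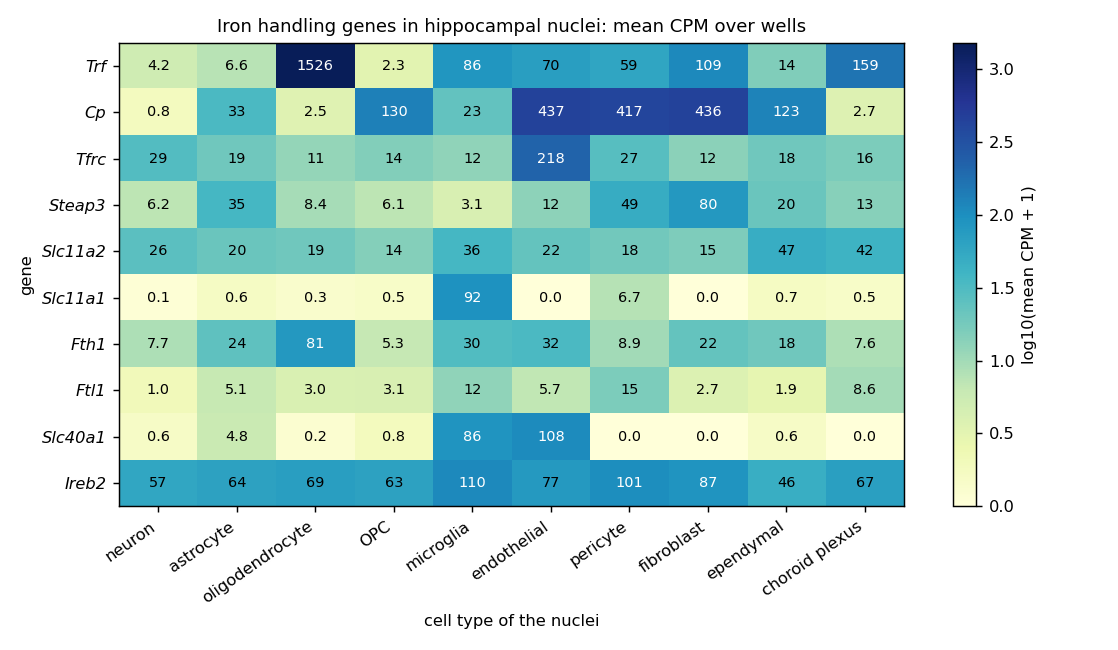
Mean CPM over wells of each iron handling gene (rows, in the order carrier, ferroxidase, uptake, storage, export and sensing) in 10 types of hippocampal nuclei (columns), with colour on a log10 scale. *Trf* stands out in oligodendrocytes (1526 CPM), *Tfrc* in endothelial nuclei (218 CPM) and *Slc11a1* in microglia (92 CPM), while *Ireb2* lies between 46 and 110 CPM in every type.

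For each gene, the genes most like it over the 11 named types of nuclei (T cells included) were listed by Pearson's r of log2(CPM + 1). All points come from the same libraries and differ in depth, and r is given as a description. They were *Golim4* (0.85), *Gmds* and *Cnn2* for *Cp*, *Mbnl2* (0.95), *Micall1* and *Zdhhc20* for *Trf*, and *Cldn5* (0.94), *Fendrr* and *Edn1* for *Tfrc*. *Slc40a1* was most like *Gch1* (0.95), *Pik3r6* and *Arap3*, *Slc11a1* like *C1qa* (0.98), *Liph* and *Mpeg1*, and *Steap3* like *Tef* (0.95), *Slc25a47* and *Klf9*. *Fth1* was most like *Scarb2* (0.94), *Tspan14* and *Fnbp1*, *Ftl1* like *Acbd3* (0.96), *Zfc3h1* and *Zfp746*, *Slc11a2* like *Fgfr1op* (0.91), *Lmln* and *Eif4b*, and *Ireb2* like *Eif4a1* (0.97), *Pdzd8* and *Msl1*. *Cldn5* and *C1qa* were among the markers used to name cell types.

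The comparison of Arc-veh with WT-veh asks which iron handling transcripts differ with amyloid pathology. In astrocytes the ferroxidase *Cp* rose from near 0. WT-veh astrocyte nuclei ranged from 0 to 7.29 CPM (median 1.25, 8 counts in all) and WT-PMX from 0 to 3.66 CPM (median 0, 4 counts). Arc-veh ranged from 14.8 to 106 CPM (median 49.0, 191 counts) and Arc-PMX from 25.7 to 129 CPM (median 77.9, 267 counts). Every Arctic well lay above every wild-type well. *Cp* was higher in Arc-veh than in WT-veh by 3.80 ± 0.55 on the log2 scale (SE, adjusted p = 2.4e-06, edgeR), and in both Arctic groups against both wild-type groups by 4.62. Of the 10 genes, 6 passed the filter on low counts in astrocytes, and *Cp* was the 1 called, where 12.5% of all tested genes were called (19.9% with all 4 groups). With 8 and 4 counts in the wild-type groups, *Cp* passed the filter only through the Arctic wells, where it was high. The count of 1 in 6 is therefore no result beside that share. The other 5 were not called: *Fth1* differed by 0.57 ± 0.35 (adjusted p = 0.36, edgeR), *Tfrc* by -0.49 ± 0.32 (adjusted p = 0.42, edgeR), and *Slc11a2*, *Steap3* and *Ireb2* by 0.39, -0.20 and -0.14. When the fit held only the 2 groups compared, *Cp* did not pass the filter and 0 of the 3 genes tested were called. That fit is given without a background.

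Within astrocytes the *Cp* transcripts lay in cluster SN-13. In that cluster Arc-veh wells had *Cp* at 75.0 ± 44.9 CPM and Arc-PMX wells at 126 ± 62.9 CPM (n = 6 each), and no wild-type group had a well with 10 nuclei of it. In the main astrocyte cluster, SN-1, *Cp* was at 1.81 ± 3.16 CPM in WT-veh, 0.72 ± 1.76 in WT-PMX, 1.59 ± 2.47 in Arc-veh and 4.69 ± 9.27 in Arc-PMX, with overlapping wells. The third cluster, SN-26, lay between 3.04 and 31.0 CPM in the 4 groups, with wide spread. SN-13 made up 34.05% to 62.84% of the astrocyte nuclei of Arc-veh wells and 36.94% to 58.42% of Arc-PMX wells. It made up 0% to 1.53% in WT-veh and 1.02% to 3.65% in WT-PMX. The clusters were made without the iron genes, but on other genes of the same nuclei, so a comparison between clusters carries no test. *Steap3*, by contrast, was at similar levels in SN-13 (35.5 ± 24.9 CPM) and SN-1 (32.0 ± 14.8 CPM) of Arc-veh wells.

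**Figure D2:**
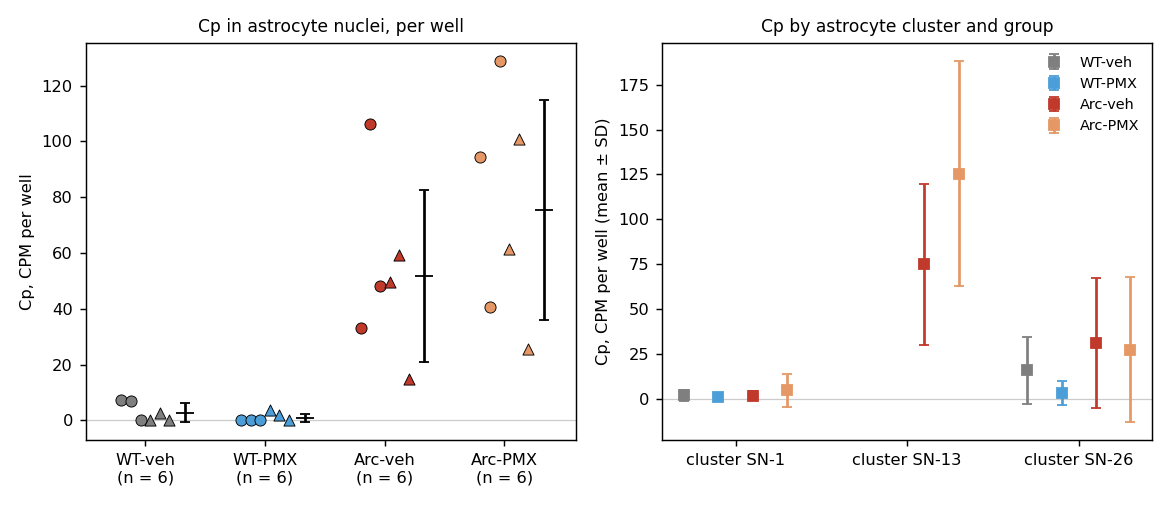
*Cp* in astrocyte nuclei, in CPM. Left, each point is 1 well (circles female, triangles male) with mean and SD beside it, and no Arctic well (14.8 CPM and above) overlaps a wild-type well (7.29 CPM and below). Right, mean and SD over wells with at least 10 nuclei of each astrocyte cluster by group: *Cp* is high in SN-13, for which no wild-type group had such a well, and low in SN-1 in all 4 groups.

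Markers of other cell types were measured beside this result, since *Cp* is higher in vessel cells, OPC and ependymal cells. The endothelial markers summed to 11.3 to 29.2 CPM in WT-veh astrocytes and to 12.3 to 38.3 CPM in Arc-veh. Of these 8 markers *Slco1a4* was at 17.2 CPM in Arctic and 2.32 CPM in wild-type nuclei, and the 7 others were at or below 4.65 CPM in either genotype. The fibroblast markers were lower in Arc-veh (133 to 241 CPM) than in WT-veh (350 to 434 CPM). The 8 pericyte markers summed to 313 to 499 CPM in Arc-veh and 200 to 286 CPM in WT-veh. That sum came mainly from *Atp13a5*, *Pdgfrb* and *Notch3*, while *Kcnj8* had no count and *Vtn*, *Abcc9* and *Rgs5* were at or below 1.29 CPM in either genotype. The ependymal markers summed to 13.9 to 52.5 CPM in Arc-veh and 5.36 to 27.6 CPM in WT-veh, with *Ccdc153* at 0 in both genotypes and the 6 others higher in Arctic nuclei. The OPC markers summed to 3417 to 3913 CPM in Arc-veh and 3550 to 4066 CPM in WT-veh, most of it from *Ptprz1* and *Sox6*, while *Lhfpl3* was at 83.2 CPM in Arctic and 49.4 CPM in wild-type nuclei. Astrocyte nuclei also held more transcripts each in Arc-veh (median of wells 3276) than in WT-veh (1325), and the astrocyte markers summed to less (23170 to 28768 against 32678 to 37458 CPM). The part of depth and of these other differences in the *Cp* result was not tested.

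The other genes of iron metabolism were examined from a list of 45, of which 17 passed the filter in astrocytes. In Arc-veh against WT-veh, 4 of the 17 rose and 2 fell by edgeR's test, where 12.5% of all tested genes were called. The metal importer *Slc39a14* rose by 2.24 on the log2 scale (adjusted p = 1.2e-10, edgeR), the haem exporter *Flvcr1* by 1.99 (adjusted p = 1.6e-05) and the ferric reductase *Cybrd1* by 1.45 (adjusted p = 0.0023). These 3 kept their calls under all 23 alternatives. The haem transporter *Slc48a1* rose by 1.29, the ferroxidase *Heph*, a relative of *Cp*, fell by 1.01, and *Neo1* fell by 0.37, with adjusted p of 0.046, 0.038 and 0.033 by edgeR. These calls were lost under 14 of 22, 15 of 23 and 10 of 23 alternatives. With all 4 groups, where 19.9% of all tested genes were called, *Heph* fell by 1.12 and *Neo1* fell by 0.33 and both kept their calls under all 10 alternatives, *Bmp6* rose by 0.69, and *Nfs1*, a cysteine desulfurase of iron-sulphur cluster assembly, fell by 0.50, a call lost under 3 of 10 alternatives. *Slc48a1* was not called there. *Cp* thus rose while its relative *Heph* fell.

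In oligodendrocytes the iron carrier *Trf* rose. WT-veh wells ranged from 575 to 1306 CPM (median 1095), WT-PMX from 1130 to 1860 CPM (median 1253), Arc-veh from 1427 to 2378 CPM (median 1878) and Arc-PMX from 1293 to 2111 CPM (median 1896). Arc-veh and WT-veh did not overlap, while the 2 groups on PMX205 did. *Trf* was higher in Arc-veh than in WT-veh by 0.81 ± 0.15 on the log2 scale (adjusted p = 0.00038, edgeR) and in both Arctic against both wild-type groups by 0.64. Of the 10 genes, 3 passed the filter and *Trf* was the 1 called, where 2.88% of all tested genes were called (5.56% with all 4 groups). The lowest WT-veh well, F3, rested on 7 *Trf* counts in 15 nuclei, and without WT-veh F3 and M3 the difference was 0.69 and was still called. *Fth1* (-0.10 ± 0.28, adjusted p = 0.95, edgeR) and *Ireb2* (0.04 ± 0.24, adjusted p = 1.0) were not called.

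Mean *Trf* was higher in Arc-veh than in WT-veh in both oligodendrocyte clusters, which was not tested. The bounds (mean plus and minus SD) were apart in SN-5 and overlapped in SN-6. In SN-5, WT-veh wells had 1278 ± 135 CPM (n = 4), while Arc-veh wells had 1927 ± 350 CPM (n = 6), and in SN-6 at 981 ± 233 and 1802 ± 697 CPM (n = 6 each). The share of SN-5 was 12.5% to 55.0% of oligodendrocyte nuclei in WT-veh and 21.05% to 91.18% in Arc-veh. Oligodendrocyte markers summed to 25090 to 30462 CPM in WT-veh and 23758 to 25899 CPM in Arc-veh. Neuronal markers summed to 726 to 1292 CPM in WT-veh and 433 to 823 CPM in Arc-veh, and each nucleus held more transcripts in Arc-veh (median of wells 1663) than in WT-veh (933). Their part in the *Trf* result was not tested. Of the iron metabolism list, edgeR called 0 of 11 genes in Arc-veh against WT-veh (background 2.88%). With all 4 groups 1 of 11 was called (background 5.56%): *Slc39a14* rose by 1.15 (adjusted p = 0.00072, edgeR).

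*Steap3*, the reductase that acts on iron released from transferrin, had 1 count in the 12 wild-type wells of oligodendrocytes and was counted in 11 of the 12 Arctic wells. The 6 WT-veh wells held 0 counts among 1009833 transcripts, which allows up to 2.97 CPM, and the 6 WT-PMX wells held 1 count. The 6 Arc-veh wells held 29 counts, from 9.91 to 26.2 CPM, and 5 of the 6 Arc-PMX wells held 34 counts in all, the highest at 34.99 CPM. Every Arc-veh well lay above every wild-type well, and Arc-PMX F3 had 0 counts. Over the group, Arc-veh was at 16.7 CPM, 5.62 times the 2.97 CPM that 0 counts allow in WT-veh. This ratio takes the Arc-veh value as exact. *Steap3* did not pass the filter on low counts. Without a filter it was called (log2 difference 5.07, adjusted p = 0.00038, edgeR), a fitted value that depends on the prior count. In that fit *Steap3* and *Trf* were the 2 of 10 genes called, against 0.87% of all genes. That share is over 19886 genes, against 4657 with the filter. The unadjusted p of *Trf* was 2.0e-10 there and 2.6e-06 with the filter (edgeR). The p-values and backgrounds of the 2 kinds of fit are therefore not comparable. The *Steap3* call was kept with each of the 12 wells left out in turn (highest adjusted p = 0.011, edgeR), while DESeq2 gave no adjusted p.

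The *Steap3* counts lay in cluster SN-5, with 27 counts in Arc-veh and 34 in Arc-PMX, against 0 in WT-veh and 1 in WT-PMX, from 713, 638, 287 and 475 nuclei. Cluster SN-6 held 2 counts in Arc-veh and 0 in the other groups. The astrocyte markers, a type in which *Steap3* is high in both genotypes, summed to 260 to 369 CPM in Arc-veh and 242 to 754 CPM in WT-veh oligodendrocytes.

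**Figure D3:**
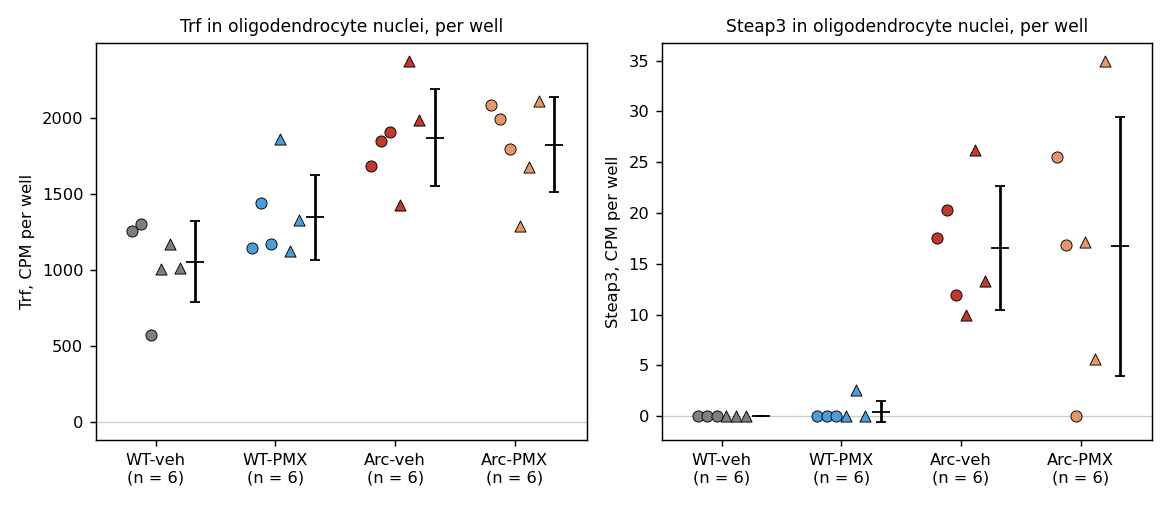
*Trf* (left) and *Steap3* (right) in oligodendrocyte nuclei, in CPM, each point 1 well (circles female, triangles male), with mean and SD beside each group. Arc-veh wells lie above WT-veh wells for both genes, and *Steap3* has counts in 6 of 6 Arc-veh wells, 5 of 6 Arc-PMX wells, 1 of 6 WT-PMX wells and 0 of 6 WT-veh wells.

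In microglial nuclei 2 of the 10 genes passed the filter, *Slc40a1* and *Ireb2*, and edgeR's test called 0 in Arc-veh against WT-veh, where 9.12% of all tested genes were called. DESeq2 also called 0, and neither gene reached an unadjusted p under 0.05. The exporter *Slc40a1* was at 0, 30.4, 142 and 196 CPM in the 4 WT-veh wells and at 34.5 to 500 CPM in the 5 WT-PMX wells (median 181). It ranged from 27.5 to 55.2 CPM in Arc-veh (median 37.3) and from 16.7 to 53.6 CPM in Arc-PMX (median 28.4). The Arctic wells lay within the wide range of the wild-type wells. The water groups differed by -1.19 ± 0.66 (adjusted p = 0.30, edgeR). With all 4 groups *Slc40a1* fell by 1.70 (adjusted p = 0.0071, edgeR), the 1 gene called of 2 against 17.9% of all genes. That call rested on 10 WT-veh and 20 WT-PMX counts and was lost without WT-veh F2 (-1.30, adjusted p = 0.15, edgeR). It was also lost with nuclei named by their highest marker score (-0.75) and with at least 20 nuclei per well (-1.35).

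The ferritin heavy chain *Fth1* had 0 counts in all 9 wild-type wells of microglial nuclei and counts in all 12 Arctic wells. The wild-type groups held 106086 (WT-veh) and 150371 (WT-PMX) transcripts, so that a count of 0 allows 28.3 and 20.0 CPM. Arc-veh wells ranged from 18.9 to 71.2 CPM (median 53.8) and Arc-PMX wells from 35.8 to 79.3 CPM (median 51.3), with 47 counts in each group. Over the group *Fth1* was at 1.63 times that limit in Arc-veh against WT-veh and at 2.64 times it in Arc-PMX against WT-PMX. These ratios take the Arctic values as exact and are not lower bounds. *Fth1* did not pass the filter. Without a filter it was not called in Arc-veh against WT-veh (unadjusted p = 0.0011, adjusted p = 0.058, edgeR), with 0 of 10 genes called against 1.71% of all genes. *Slc11a1* (0.0036) and *Ftl1* (0.047) also had an unadjusted p under 0.05 in that fit. It was called with all 4 groups (adjusted p = 4.4e-05, edgeR, kept with each of 21 wells left out in turn).

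With all 4 groups and no filter, 4 of the 10 genes were called in microglial nuclei, against 4.83% of all genes: *Fth1*, *Ftl1* and *Slc11a1* rose and *Slc40a1* fell. That background is over 18564 genes, against 2434 with the filter. It and the p-values of this fit are not comparable with those of the filtered fit. *Ftl1* had 0 counts in the wild-type wells and 17 (Arc-veh) and 24 (Arc-PMX) in the Arctic groups. Over the group, Arc-veh was at 16.6 CPM, under the 28.3 CPM that 0 counts allow in WT-veh, so a difference between the water groups was not detectable at this depth. Arc-PMX was at 1.35 times the limit of WT-PMX, again with its own 24 counts taken as exact. The *Ftl1* call was lost when WT-veh M1 or WT-PMX M1 was left out, and DESeq2 gave no adjusted p. *Slc11a1* lay between 105.7 and 170 CPM in Arc-veh wells and between 73.3 and 127 CPM in Arc-PMX wells. WT-veh wells lay between 0 and 91.2 CPM and WT-PMX wells between 0 and 234 CPM, overlapping both Arctic groups in the case of WT-PMX and Arc-PMX in the case of WT-veh. Its call was lost in 13 of 21 leave-one-out fits. Microglial markers summed to less in Arc-veh (7692 to 10306 CPM) than in WT-veh (12834 to 15911 CPM), and each nucleus held more transcripts in Arc-veh (median of wells 1493) than in WT-veh (814). Neuronal markers ranged from 560 to 2915 CPM in Arc-veh and from 781 to 1642 CPM in WT-veh, and oligodendrocyte markers from 262 to 589 and from 189 to 638 CPM. Endothelial markers summed to 143 to 468 CPM in Arc-veh and 185 to 531 CPM in Arc-PMX, against 0 to 192 CPM in WT-veh and 0 to 90.2 CPM in WT-PMX. Of the 8 endothelial markers, *Flt1* was at 295 CPM in Arctic and 11.7 CPM in wild-type nuclei, *Pecam1* was at 12.0 and 66.3 CPM and *Slco1a4* at 8.36 and 7.80 CPM. *Mecom* (11.5 CPM), *Adgrl4* (6.27 CPM) and *Cdh5* (2.09 CPM) were counted in Arctic and at 0 in wild-type nuclei, and *Cldn5* and *Ly6c1* were at 0 in both. The part of all these in the *Fth1*, *Ftl1*, *Slc11a1* and *Slc40a1* differences was not tested.

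**Figure D4:**
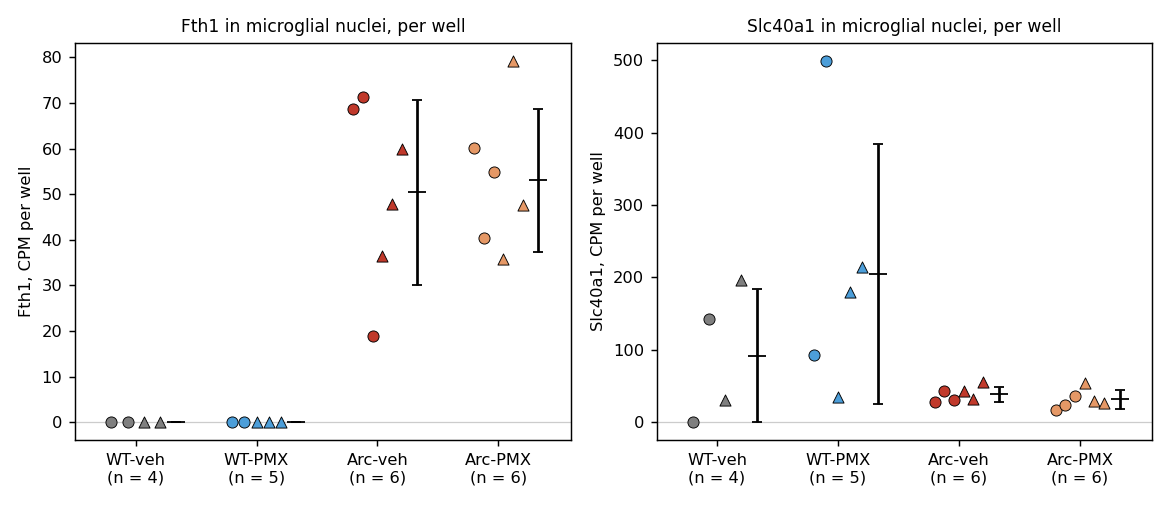
*Fth1* (left) and *Slc40a1* (right) in microglial nuclei, in CPM, each point 1 well with at least 10 nuclei (circles female, triangles male), with mean and SD beside each group. *Fth1* is at 0 in 9 wild-type wells and between 18.9 and 79.3 CPM in 12 Arctic wells, while *Slc40a1* spreads from 0 to 500 CPM in wild-type wells and from 16.7 to 55.2 CPM in Arctic wells.

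In CD11b-selected microglia no iron handling gene passed the filter on low counts. The ferritin chains were the ones with a difference when no filter was used. *Fth1* was at 305 CPM in Arc-veh F1, 192 in M2, 106 in M3, 66.4 in F2 and 21.7 in F3. In the 5 WT-veh wells it was at 0, 0, 36.3, 61.4 and 159 CPM, from 6 counts. *Ftl1* was at 170, 141, 124, 47.4 and 43.3 CPM in Arc-veh F1, M3, M2, F2 and F3, and at 26.6, 12.1, 0, 0 and 0 CPM in WT-veh. The groups overlapped for *Fth1* and did not overlap for *Ftl1*. The WT-veh values of *Ftl1* came from 2 counts among 159327 transcripts. A count of 0 allows 18.8 CPM over that group and more in a single well. The lack of overlap for *Ftl1* is therefore limited by depth. Without a filter *Fth1* differed by 2.71 (adjusted p = 0.0016, edgeR) and *Ftl1* by 3.57 (adjusted p = 0.0013, edgeR), 2 of 10 genes called against 0.828% of all genes. With all 4 groups and no filter both were also called (*Fth1* 2.45, adjusted p = 7.5e-05, and *Ftl1* 2.17, adjusted p = 0.022, edgeR). No well was left out in turn for those 2 calls, and no background is given, so they are not read as further support. With the filter, which no iron handling gene passed, 258 of 1409 genes were called in that contrast.

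Arc-veh F1 gave 239 of the 329 *Fth1* counts of its group. Without it neither ferritin gene was called (*Fth1* 2.11, adjusted p = 0.15, and *Ftl1* 3.01, adjusted p = 0.068, edgeR). By level over the cells of all groups, cluster SC-3 was highest among the microglial clusters (*Fth1* 323 CPM, *Ftl1* 226 CPM), followed for both genes by SC-4 (192 and 84.7 CPM). Over Arc-veh wells (n = 2 each) SC-5 lay above SC-4, within their spread, at 258 against 232 CPM for *Fth1* and 103 against 96.6 CPM for *Ftl1*. Over Arc-PMX wells (n = 3 each) *Fth1* in SC-3 was at 187 CPM, while *Ftl1* there was at 15.5 CPM, below the 78.4 CPM of SC-5. By count, in Arc-veh wells with at least 10 cells of the cluster, SC-4 held 151 *Fth1* counts and SC-3 118, and SC-4 held 67 *Ftl1* counts and SC-3 83. SC-3 made up 36.31% of microglia of Arc-veh F1 and 52.49% of M2, 0% to 14.0% in the 3 other Arc-veh wells, 0% to 10.61% in Arc-PMX and 0% to 4.17% in wild-type wells.

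*Ftl1* was also the 1 of 10 genes called, against 0.184% of all genes, in Arc-PMX against Arc-veh of these cells without a filter: it fell by 2.22 (adjusted p = 0.00049, edgeR), with Arc-PMX wells at 0 to 87.3 CPM (median 21.2). *Fth1* was at 20.4 to 192 CPM there (median 63.4) and was not called (-1.28, adjusted p = 0.12, edgeR). The *Ftl1* call was lost without Arc-veh F1 (-1.70, adjusted p = 0.45) or without M2 (-2.02, adjusted p = 0.069), and DESeq2 did not make it (adjusted p = 0.88). The 2 comparisons share the Arc-veh wells.

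**Figure D5:**
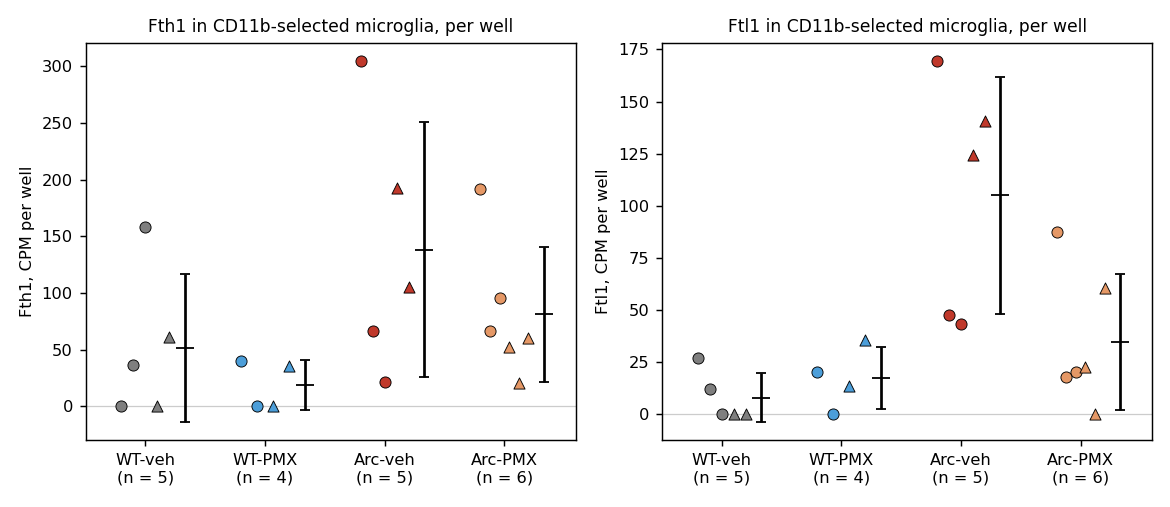
*Fth1* (left) and *Ftl1* (right) in CD11b-selected microglia, in CPM, each point 1 well with at least 10 cells (circles female, triangles male), with mean and SD beside each group. The highest Arc-veh wells reach 305 CPM for *Fth1* and 170 CPM for *Ftl1*, Arc-veh F2 and F3 are the lowest of their group for *Ftl1*, and the wild-type wells rest on 0 to 3 counts each.

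With the filter on low counts, no iron handling gene was called in Arc-veh against WT-veh in the other types. In OPC, 2 genes were tested and 0 called by edgeR (background 1.13%), and *Cp* differed by 0.01 ± 0.23 between Arc-veh (88.3 to 223 CPM) and WT-veh (71.0 to 191 CPM). In neurons, 8 were tested and 0 called (background 0.0595%), and *Tfrc* (-0.06 ± 0.10), *Slc11a2* (0.24 ± 0.14) and *Ireb2* (-0.08 ± 0.10) had narrow errors. DESeq2 also called 0 in OPC and neurons, where no test of these genes gave an unadjusted p under 0.05. In endothelial nuclei 3 were tested, in fibroblast nuclei 1 and in single endothelial cells 1. There edgeR called 0, with 0 at an unadjusted p under 0.05 and a background of 0.0% in each. DESeq2 results of this comparison are not given for these types. Without a filter and with all 4 groups, *Ftl1* was the 1 of 10 genes called in single endothelial cells, against 0.238% of all genes (adjusted p = 0.035, edgeR). It had 0 counts in the 6 wild-type wells, 60 in the 3 Arc-veh wells and 9 in the 4 Arc-PMX wells. The call was lost in 10 of 13 leave-one-out fits, among them without Arc-veh F1 (adjusted p = 0.80), and DESeq2 did not make it (adjusted p = 0.60). The cluster named endothelial, SC-2, held microglial markers at 6882 CPM and endothelial markers at 6242 CPM. Microglial markers summed to 711 to 7909 CPM in its Arc-veh wells and 6792 to 9348 CPM in its WT-veh wells, and their part in the *Ftl1* result was not tested. *Cp* in endothelial nuclei, at 154 to 730 CPM in Arc-veh and 181 to 324 CPM in WT-veh, differed by 0.58 ± 0.83. In dentate granule neurons *Steap3* differed by 0.19 ± 0.19 and *Trf* by 0.03 ± 0.33, neither called, while of the iron metabolism list *Slc39a8*, a metal importer, rose with all 4 groups (0.77, adjusted p = 0.033, edgeR), 1 of 21 genes against 1.33% of all genes. No alternative was run for *Slc39a8*.

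The comparison of Arc-PMX with Arc-veh asks whether C5aR1 antagonism changes these transcripts in Arctic mice. With the filter on low counts, 47 tests of the 10 genes could be made in 13 types, which count neuronal classes both together and apart and leave out CD11b-selected microglia, where none passed. Of these edgeR called 0, and DESeq2 called 0 in the 9 types in which it was run. *Slc11a2* in dentate granule neurons (-0.45) was the 1 with an unadjusted p under 0.05. The background was as low, at 0.0137% in astrocytes, 0.0215% in oligodendrocytes, 0.0323% in OPC and 0.0% in microglia and neurons. *Cp* in astrocytes differed by 0.44 ± 0.29, *Trf* in oligodendrocytes by -0.05 ± 0.14 and *Slc40a1* in microglial nuclei by -0.38 ± 0.48, all with an adjusted p of 1.0 by edgeR. In WT-PMX against WT-veh 0 of 47 were called by edgeR, as by DESeq2 in its 9 types, and 3 had an unadjusted p under 0.05. The background of that contrast and of the next was 0.0% in every type, so a count of 0 is no result about the iron genes. For the contrast of the 2 PMX205 effects (Arctic minus wild type), 0 of 47 were called and 2 had an unadjusted p under 0.05, the lower of them *Slc11a2* in dentate granule neurons (-0.84, unadjusted p = 0.0040, adjusted p = 1.0, edgeR). Of 161 tests of the iron metabolism list, 0 were called in each of these contrasts. The comparisons share control wells, and a gene not called is not shown to be the same in both groups.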

How the data were processed

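Single cells and nuclei were barcoded by split-pool ligation in 48 wells and sequenced as 7 libraries that each mix all wells. The deposited matrices hold raw counts of transcripts per barcode and gene, which the authors made with the split-pipe software of the kit on the mm10 genome. The submitters' processing notes name bcl2fastq and mm10. The group of each well was read from the deposited sample sheet.

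Barcodes with more than 300 and fewer than 50000 transcripts were kept, with under 10% mitochondrial transcripts and more than 300 genes in single cells, and under 1% and more than 400 genes in nuclei. Scrublet scores above 0.25 (expected rate 0.06) removed 1267 doublets. Of 43456 distinct barcode combinations, 3971 were found in more than 1 library. Cells were clustered without the iron genes with scanpy 1.11.5 (2000 variable genes, 30 components, 15 neighbours, Leiden resolution 1 for cells and 1.5 for nuclei). Clusters were named by markers. Neuronal classes are marker-based names.

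Counts were summed per well and cell type where a well held at least 10 cells. Types with at least 3 wells in every group were tested in edgeR 4.0.16 (R 4.3.3) by the quasi-likelihood test with TMM scaling, filterByExpr and sex as a covariate, all 4 groups in 1 fit, two-sided. The contrasts were Arc-veh against WT-veh, Arc-PMX against Arc-veh, WT-PMX against WT-veh, the difference between the PMX205 effects, and both Arctic against both wild-type groups. Adjusted p-values cover all genes tested in a type. The SE of a log2 difference was its absolute value divided by the square root of the test's F statistic, and is approximate. Nuclei wells are separate mice, and single-cell wells are pools. DESeq2 1.42.0, other scaling, filters, cell naming and left-out wells were alternatives. Intervals and limits from a count of 0 (3 counts) cover counting error only. Ratios to such a limit leave out the counting error of the Arctic side.

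The iron handling genes were named because of their function, and the other iron metabolism genes are named where called. These lists were chosen with earlier results of these data known. The study left out 1 wild-type sample that looked Arctic by expression. Its well is not named in the sources used here, and all wells were kept. Whether well numbers pair the groups was checked by correlating deviations from the group means of same-numbered wells. In neurons, r ran from -0.64 to 0.60 (median 0.07), against a median of -0.03 for wells with different numbers. These medians were 0.07 and -0.03 in astrocytes and 0.05 and -0.04 in oligodendrocytes. The numbers were not treated as pairs in the main fits, and fits with the number as a block are given below. Scripts were tested on simulated data.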

Additional observations from a re-analysis of the deposited data

Results flagged for a closer look

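Of 94 groups of wells examined for a single well standing apart by Dixon's 95% limit, 6 did, and chance alone gives about 1 in 20. *Ireb2* in neuronal nuclei was at 40.18 CPM in Arc-PMX F3, with the next well at 57.91 CPM. The same well was low for *Ireb2* in astrocyte nuclei, at 52.38 CPM with the next at 65.46 CPM, and high for *Steap3* there, at 60.44 CPM with the next at 31.86 CPM. *Trf* in neuronal nuclei was at 1.63 CPM in Arc-veh M1, with the next well at 4.19 CPM. *Ftl1* in neuronal nuclei was at 3.39 CPM in Arc-PMX F2, with the next well at 1.41 CPM. *Cp* in endothelial nuclei was at 2294.4 CPM in Arc-PMX M1, from 32 counts, with the next well at 143.62 CPM. None of these genes was called in these types in any contrast, and the causes were not tested.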

How the results depend on the processing

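The first set of recomputed values joins counts of called iron handling genes with the mean level of each gene in its highest type. In it 330 stayed the same: within 1.5 times for a count, within the SD for a level. Of the counts, 4 rose past that limit and 1 fell below it. The second set joins differences of single genes between groups with mean levels in the other types. In it 641 stayed the same: in direction and side of the threshold for a difference, within the SD for a level. The 641 are therefore not a count of calls kept. Of the differences, 79 lost their call, 2 gained one and 1 reversed. With only the 2 groups compared in the fit, 0 were called in astrocytes, since *Cp* did not pass the filter. Without a filter on low counts, 2 were called in oligodendrocytes (*Trf* and *Steap3*), 2 in CD11b-selected microglia for Arc-veh against WT-veh and 1 there for Arc-PMX against Arc-veh. With both Arctic against both wild-type groups, 1 was called in microglial nuclei with the filter (*Slc40a1*) and 4 without it. Without the filter that contrast also called *Fth1* and *Ftl1* in CD11b-selected microglia, *Ftl1* in single endothelial cells, and *Trf* and *Steap3* in oligodendrocytes. 1 direction reversed: *Fth1* in CD11b-selected microglia, Arc-PMX against Arc-veh without a filter, went from -1.28 to 0.29 without Arc-veh F1 and M2, with neither called. *Cp* in astrocytes ranged from 2.84 to 4.45 and *Trf* in oligodendrocytes from 0.69 to 1.12 over the alternatives, and with single wells left out from 3.46 to 4.45 and from 0.73 to 0.89, all called. *Ftl1* and *Fth1* in CD11b-selected microglia depended on Arc-veh F1 and M2: without both, *Fth1* was at 1.17 and *Ftl1* at 2.55 in Arc-veh against WT-veh, neither called. Leaving out wells in the fits without a filter was chosen after seeing the data.

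With the well number as a replicate block, *Cp* differed by 3.84 and *Slc40a1* in microglial nuclei (all 4 groups) by -1.63, 1 gene was called in astrocytes and 1 in oligodendrocytes, and *Slc48a1* lost its call (1.25). No background is given for the blocked fits, so these counts of calls are not read as a result about the iron genes. The block was not run for the calls made without a filter or for *Slc39a8*. Depth limits the low types: a count of 0 allows 28.3 CPM in WT-veh microglial nuclei and 59.2 CPM in WT-veh single endothelial cells.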
